A study of Mus musculus with 15 samples.

Results

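Oxidative phosphorylation is the process by which the inner mitochondrial membrane turns the oxidation of nutrients into ATP. Complex I (NADH dehydrogenase, the Nduf genes) and complex II (succinate dehydrogenase, the Sdh genes) pass electrons to ubiquinone, complex III (the Uqcr genes) passes them to cytochrome c, complex IV (cytochrome c oxidase, the Cox genes) passes them to oxygen, and complex V (the Atp5 genes) makes ATP from the proton gradient. Osteoblasts make large amounts of collagen, and how they divide ATP production between glycolysis and respiration during differentiation is a recurring question in bone biology. The nuclear genes of these 5 complexes were followed here in a mouse pre-osteoblast line given an osteogenic stimulus.

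MC3T3 is an established line of osteoblast precursors from mouse calvaria, and all cells were of its clone 1b. RNA was measured on 15 Affymetrix oligonucleotide arrays in 5 groups of 3, with 1 array per group in each of 3 numbered preps. At day 0 the cells had been in control medium, and at day 1 and at day 3 there were cells given beta-glycerol phosphate alone (GP) and cells given GP, ascorbic acid (AA) and BMP-2, called treated below. GP is the phosphate source of mineralizing cultures, AA helps to hydroxylate collagen, and BMP-2 (a bone morphogenetic protein) drives osteoblast differentiation. No group had AA or BMP-2 without the other, and the share of each in a difference cannot be told apart. The control medium was sampled only at day 0, so GP and a day of culture cannot be told apart either. Whether the preps came from separate cultures is not stated in the labels. The p-values therefore cover only the spread among these arrays, part of which may be technical, and a single clone stands for the cell type.

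The members were chosen by gene symbol: every probe set with 1 platform symbol that starts with Nduf, Uqcr, Cox4 to Cox8 or Atp5, or is Sdha, Sdhb, Sdhc or Sdhd. This found 98 probe sets of 71 genes among 12422 probe sets other than controls, and the probe set with the highest mean log2 signal stood for each gene. By complex these were 31 genes of complex I, 4 of II, 7 of III, 15 of IV and 14 of V. The prefix also takes in Ndufaf1 and Ndufaf4, which assemble complex I and are not subunits, and Cox7a2l, which joins complexes III and IV into supercomplexes. Another 10 probe sets that carry a matching symbol together with other symbols were left out by the rule. Of the 71 genes, 62 passed a filter on mean signal (22.3) that 7453 probe sets passed, and 9 did not. Signals are linear intensities, and levels are compared between arrays only; the order of signals among probe sets served to choose probe sets and named members, and is no order of expression.

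The arrays differed by prep. On the first principal component of the 7453 tested probe sets (32.7% of the variance) the 5 arrays of prep 3 stood apart, and preps 1 and 2 overlapped. Prep 3 also had the most values at the floor of 2.8 (12.1 to 14.3% of probe sets, against 7.30 to 10.05% in preps 1 and 2), and its GP day 3 array had an actin 3'/5' signal ratio of 2.11 against 1.00 to 1.34 on the other arrays. The 4 tested osteoblast markers included Col1a1, the main bone collagen, at 6727 to 11862, while Ibsp, Dmp1 and Pth1r had mean signals under the filter. Pth1r, not tested for that reason, was 4.7 to 8.6 in GP and 57.4 to 419.3 in treated cells at day 3. In preps 1, 2 and 3, Dmp1 was 31.5, 33 and 9.6 in GP and 23.4, 25 and 11.6 in treated cells at day 3. Ibsp was 15.4, 54.7 and 2.9 against 45.6, 15.3 and 36.7. Alpl, the alkaline phosphatase that marks osteoblast commitment, rose with treatment from 20.6 to 33.4 in GP at day 3 to 363 to 971 (log2 difference 4.58 ± 0.50 (SE), limma adjusted p = 0.000113). Of the 4 tested osteoblast markers only Alpl passed at day 3, and Col1a1, Col1a2 and Sparc did not. At day 1 also 1 of the 4 passed, and 2 of the 4 had a difference above 0. Of 6 tested fibroblast and mesenchyme markers, S100a4 fell at day 1, and at day 3 Col3a1 rose (1.27 ± 0.17) and S100a4, Pdgfra, Pdgfrb and Thy1 fell (Thy1 most, at -1.65 ± 0.24), with only Col3a1 and Thy1 past the threshold without the block. The summed signal of all 7 markers of the list, with Vim under the filter, was 8780 to 9779 in GP and 7609 to 10766 in treated cells at day 3, and the part of these markers in the members' differences was not tested. None of the tested adipocyte (1), macrophage and osteoclast (2), epithelial (1) and neural (2) markers passed with treatment on either day, and none of 5 endothelial markers passed the filter. Each comparison below was fitted with the prep number as a block, because the members are paired by prep.

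The sequence just upstream of a gene's start is where general regulators of respiratory genes, such as nuclear respiratory factor 1 (NRF1), the ETS-type factor GABP and YY1, are known to bind. The 120 bases before the annotated start are shown first for 5 of the 7 members whose signal passed the test with treatment, in RefSeq's GRCm38.p6 build and read 5′ to 3′ on the gene's strand. These are the 3 members that rose most and both members that fell.
Ndufb8, chr19:44555443-44555562, minus strand: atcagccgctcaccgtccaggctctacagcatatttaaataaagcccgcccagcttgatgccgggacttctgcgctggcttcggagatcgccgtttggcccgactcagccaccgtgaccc
Ndufv1, chr19:4012756-4012875, minus strand: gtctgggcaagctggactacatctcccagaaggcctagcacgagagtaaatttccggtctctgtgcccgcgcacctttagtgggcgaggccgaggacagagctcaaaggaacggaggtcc
Sdhb, chr4:140961151-140961270, plus strand: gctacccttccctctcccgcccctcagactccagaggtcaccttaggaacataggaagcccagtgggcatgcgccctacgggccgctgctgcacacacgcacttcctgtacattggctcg
Ndufv3, chr17:31519995-31520114, plus strand: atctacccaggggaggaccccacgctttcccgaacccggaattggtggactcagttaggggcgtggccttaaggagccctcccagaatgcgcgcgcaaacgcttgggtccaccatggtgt
Cox7a2l, chr17:83514334-83514453, minus strand: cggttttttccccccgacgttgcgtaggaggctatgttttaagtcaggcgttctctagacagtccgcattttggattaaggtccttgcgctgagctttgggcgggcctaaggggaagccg
In the full windows of 300 bases (250 before and 50 after the start), none of the 7 members that passed a test held GCGCANGCG (NRF1), CCGGAAGT (ETS) or AAGATGGCG (YY1) on either strand, which says only that those letters are not there. Members with the NRF1 letters were found elsewhere in the set, and 3 are shown with the match in capitals: Sdha, which has several matches, and Ndufa5 and Atp5g2, with a match near the start.
Sdha, chr13:74350241-74350360, minus strand: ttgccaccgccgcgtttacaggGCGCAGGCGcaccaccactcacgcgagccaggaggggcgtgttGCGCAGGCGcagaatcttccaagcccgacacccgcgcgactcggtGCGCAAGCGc
Ndufa5, chr6:24527691-24527810, minus strand: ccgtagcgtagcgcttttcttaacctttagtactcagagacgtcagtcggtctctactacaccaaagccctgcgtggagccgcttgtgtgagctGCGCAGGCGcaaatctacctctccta
Atp5g2, chr15:102671048-102671167, minus strand: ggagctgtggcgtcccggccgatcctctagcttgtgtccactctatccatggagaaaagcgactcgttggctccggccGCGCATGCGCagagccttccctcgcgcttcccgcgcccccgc
RefSeq windows were held for 58 of the 71 members. The NRF1 letters stood in the windows of 15 of the 58 genes (25.9%), against 7.03% of all 27025 genes with a window of this length. The YY1 letters stood in 5 (8.62%, against 1.64%) and the ETS letters in 4 (6.9%, against 4.31%), and Uqcr11 held both NRF1 and ETS letters. A search run first, with NRF1 and YY1 letters 1 base longer, gave 20.7% of the members against 5.19% for NRF1 and 5.17% against 0.995% for YY1, and again none of the 7. By complex, 5 of 28 genes of complex I, 2 of 3 of complex II, 2 of 4 of complex III, 1 of 11 of complex IV and 5 of 12 of complex V held the NRF1 letters. These are matches of letters, given without a test and not as bound sites.

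Most respiratory chain genes kept their level within 1.5-fold when ascorbic acid and BMP-2 were added. At day 1 no member rose and 2 of 62 fell (3.23%, against 4.99% of all tested probe sets, of which 2.07% were higher and 2.92% lower). At day 3, 5 rose and 1 fell (9.68%, against 13.8%, of which 6.84% were higher and 6.99% lower). The members' share past the threshold was thus no larger than the background on either day. Fitted differences lay within 1.5-fold for 60 of 62 members at day 1 and 62 of 62 at day 3. This share was not counted over all tested probe sets, whose quartiles also lay within 1.5-fold. The quartiles were -0.09 and 0.11 for the members at day 1, against -0.22 and 0.20 for all tested probe sets. At day 3 they were -0.12 and 0.20, against -0.26 and 0.25. The median log2 difference was 0.02 at day 1 and 0.05 at day 3, against 0.00 over all tested probe sets on both days. It was above 0 for 39 and 36 of the 62 members (all tested probe sets, 49.4% and 50%), and for 26 at day 1 without the treated array of prep 2, where the median was -0.04. In these bulk samples, fewer cells of a type and less RNA per cell cannot be told apart.

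**Figure D1:**
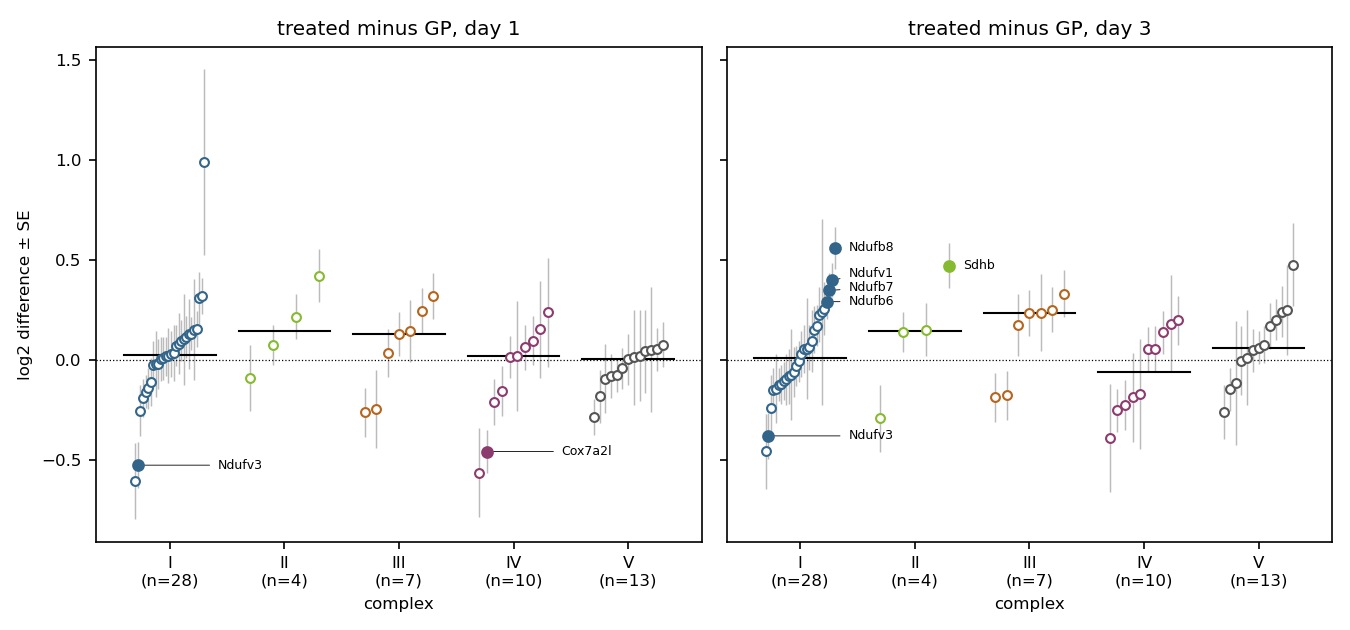
Log2 difference between treated and GP arrays (± SE) for the 62 tested members, by complex, at day 1 (left) and day 3 (right); filled points passed an adjusted p of 0.05, and black lines are the medians. The medians of the complexes lie between -0.06 and 0.24, and single members between -0.61 and 0.99 at day 1 and -0.46 and 0.56 at day 3. The 7 named members are those past the threshold at day 1 or day 3.

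Without the prep block, no member passed at day 1 (background 0.926%) and only Ndufv1 passed at day 3 (background 4.11%). The calls below therefore rest on differences within preps. Treated and GP groups did not overlap for 5 higher and 5 lower of the 62 members at day 1 (8.44% and 8.63% of all tested probe sets). At day 3 these were 4 higher and 5 lower (10.5% and 9.58%). Separation of the groups was thus no more frequent among the members than over all tested probe sets. All adjusted p-values are from limma with Benjamini-Hochberg adjustment over the 7453 tested probe sets.

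In complex I, 1 of 28 tested members passed at day 1 (3.57%, against 4.99% of all tested probe sets) and 5 of 28 at day 3 (17.9%, against 13.8%). Ndufv1 is the core flavoprotein that binds NADH and takes up its electrons. Its signal at day 3 was 1508, 1606 and 1487 in GP (preps 1, 2 and 3) and 1947, 2123 and 2000.1 in treated cells, so every treated array lay above every GP array. The log2 difference was 0.40 ± 0.08 (SE, n = 3 per group, 1.32-fold, limma adjusted p = 0.00669, and 0.0403 without the block). At day 1 the groups did not overlap either, at 1731, 1700.2 and 1628 in GP and 1769, 1873 and 1898 in treated cells, but the difference of 0.13 ± 0.08 did not pass (limma adjusted p = 0.439). In control medium at day 0 Ndufv1 was 1690.4, 1609.7 and 1451. Its day 3 call held without each of the 6 arrays and was lost without all arrays of prep 1 (limma adjusted p = 0.0695) or prep 2 (0.128).

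Ndufb8, Ndufb7 and Ndufb6 are accessory subunits of the membrane arm, the part of complex I that pumps protons. Ndufb8 had the largest rise among the tested members at day 3: GP arrays read 753, 1075 and 545 and treated arrays 1229.9, 1312 and 876. Each prep was higher with treatment, and the groups overlap, with prep 3 the lowest in both. This gave a log2 difference of 0.56 ± 0.10 (1.47-fold, limma adjusted p = 0.00355, and 0.445 without the block). At day 1 Ndufb8 was 1030.0, 1359 and 641 in GP and 1111, 1333 and 768 in treated cells, a difference of 0.11 ± 0.10 (limma adjusted p = 0.626), and in control medium it was 862, 1168 and 585. Of these 5 groups, GP at day 3 was the lowest in each prep. The day 3 call held without each of the 6 arrays and was lost without prep 1 (limma adjusted p = 0.101).

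Ndufb7 read 1073, 1459 and 1004 in GP at day 3 and 1415, 1669 and 1371 in treated cells, higher in each prep with overlapping groups. Its log2 difference was 0.35 ± 0.09 (1.27-fold, limma adjusted p = 0.0198, and 0.3004 without the block), after 0.15 ± 0.09 at day 1 (0.383). Without the GP array of prep 1 or of prep 3, or the treated array of prep 3, the day 3 call was lost (limma adjusted p = 0.0963, 0.0651 and 0.0697). It was lost without prep 1, 2 or 3 as a whole as well (0.195, 0.0899 and 0.136).

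Ndufb6 passed the test at day 3 only. Its signal was 983, 1141 and 923 in GP and 1254, 1494 and 1072 in treated cells at day 1, and 885, 1147 and 945 against 1209, 1387 and 1048 at day 3. Each prep was higher with treatment on each day, and the groups overlap, with prep 2 the highest in each. The fitted log2 difference was 0.32 ± 0.09 at day 1 (limma adjusted p = 0.0582, not past the threshold) and 0.29 ± 0.09 at day 3 (0.0450, and 0.402 without the block). This is the weakest of the day 3 rises: the call was kept only without the GP array of prep 3, and leaving out any other of the 6 arrays gave limma adjusted p-values of 0.0598 to 0.195. Without preps 1, 2 and 3 in turn they were 0.395, 0.257 and 0.0520.

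Ndufv3, an accessory subunit of the same NADH-oxidizing module as Ndufv1, moved the other way. At day 1 it was 541, 619.6 and 506 in GP and 388, 499 and 292 in treated cells, and at day 3 569, 661 and 525 against 459.6, 522 and 373. Treated arrays lay below GP arrays with no overlap on both days, although the margin was narrow (522 against 525 at day 3). The log2 difference was -0.53 ± 0.11 at day 1 (1.44-fold, limma adjusted p = 0.0190, and 0.282 without the block) and -0.38 ± 0.11 at day 3 (1.30-fold, 0.0407, and 0.350 without the block). Ndufv3 was the only member past the threshold on both days. In control medium it was 502, 478 and 405. The day 1 call was lost without the GP array of prep 2 or 3 or the treated array of prep 1 or 3 (limma adjusted p = 0.0742, 0.0942, 0.0592 and 0.0850), and the day 3 call without any of the 6 arrays (0.0802 to 0.122). Without preps 1, 2 and 3 in turn the day 1 values were 0.144, 0.128 and 0.154 and the day 3 values 0.191, 0.160 and 0.157.

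Among the other members of complex I, Ndufs1, the largest core subunit and a carrier of iron-sulfur clusters, was 208, 199 and 197 in GP and 238, 243 and 269.6 in treated cells at day 1. These groups did not overlap, and the difference of 0.31 ± 0.13 did not pass (limma adjusted p = 0.198). At day 3 it was 0.26 ± 0.13 (0.233). The accessory subunit Ndufa7 differed by -0.16 ± 0.08 and -0.13 ± 0.08 on the 2 days. Accessory subunits Ndufa6 (-0.61 ± 0.19, limma adjusted p = 0.0835) and Ndufa1 (0.99 ± 0.46, 0.261) had the lowest and highest fitted differences of day 1 among the tested members, neither past the threshold. Both were named after their values were seen. Ndufa1 ranged from 15.8 to 78.0 over the arrays, close to the signal filter.

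Sdhb was the one member outside complex I that rose. It is the iron-sulfur subunit that carries electrons from the succinate site of complex II towards ubiquinone. At day 3 it was 459, 519.8 and 479 in GP and 732, 702 and 593 in treated cells, with no overlap. That is a log2 difference of 0.47 ± 0.11 (1.39-fold, limma adjusted p = 0.0134, and 0.109 without the block), after 0.22 ± 0.11 at day 1 (0.319), where GP read 537, 538 and 476 and treated cells 598, 698 and 516. In control medium it was 443, 602 and 470.4. Its probe set is marked by the array's maker as shared between similar transcripts. The call was lost without the GP array of prep 1 or 2 or the treated array of prep 1 (limma adjusted p = 0.0663, 0.0633 and 0.0655) and without prep 1 or 2 as a whole (0.179 and 0.111).

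The rest of complex II did not pass on either day. Sdha, the flavoprotein that oxidizes succinate, was 99.2, 86.5 and 113 in GP and 66.1, 66.9 and 119.5 in treated cells at day 3, lower in preps 1 and 2 and higher in prep 3 (-0.29 ± 0.17, limma adjusted p = 0.286). The membrane anchors Sdhc and Sdhd differed by 0.14 ± 0.10 and 0.15 ± 0.13 at day 3. At day 1 Sdhd was 569, 487 and 374 in GP and 638, 656 and 595 in treated cells, without overlap, and its difference of 0.42 ± 0.13 did not pass (limma adjusted p = 0.0916).

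No member of complex III passed the test at day 1 or day 3. Its 7 members had a median log2 difference of 0.13 at day 1 and 0.24 at day 3, with 5 of 7 above 0 on each day. Uqcrc1, a core protein of the matrix side, was 782, 826 and 719 in GP and 795, 951 and 1036 in treated cells at day 3 (0.25 ± 0.11, limma adjusted p = 0.169). Uqcrq, a small subunit of complex III, differed by 0.32 ± 0.11 at day 1 (0.124) and 0.24 ± 0.11 at day 3 (0.206). Uqcr10 differed by 0.33 ± 0.12 at day 3 (limma adjusted p = 0.0810). Within preps, the complex III medians at day 3 were 0.22, -0.15 and 0.21, so prep 2 went against the other preps.

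Cox7a2l fell at day 1 and was the one complex IV member to pass. It was 1139, 1331 and 1350.0 in GP and 909, 979.5 and 885 in treated cells, with no overlap. The log2 difference was -0.46 ± 0.11 (1.37-fold, limma adjusted p = 0.0246, and 0.158 without the block). At day 3 it was 1251, 1329 and 1734 in GP and 1131, 1222 and 1232 in treated cells, again without overlap, with a difference of -0.25 ± 0.11 that did not pass (0.137). In control medium Cox7a2l was 1291, 1299.7 and 1524. The day 1 call was kept only without the treated array of prep 1. Leaving out any other of the 6 arrays gave limma adjusted p-values of 0.0525 to 0.135, and leaving out preps 1, 2 and 3 in turn gave 0.122, 0.271 and 0.0807.

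**Figure D2:**
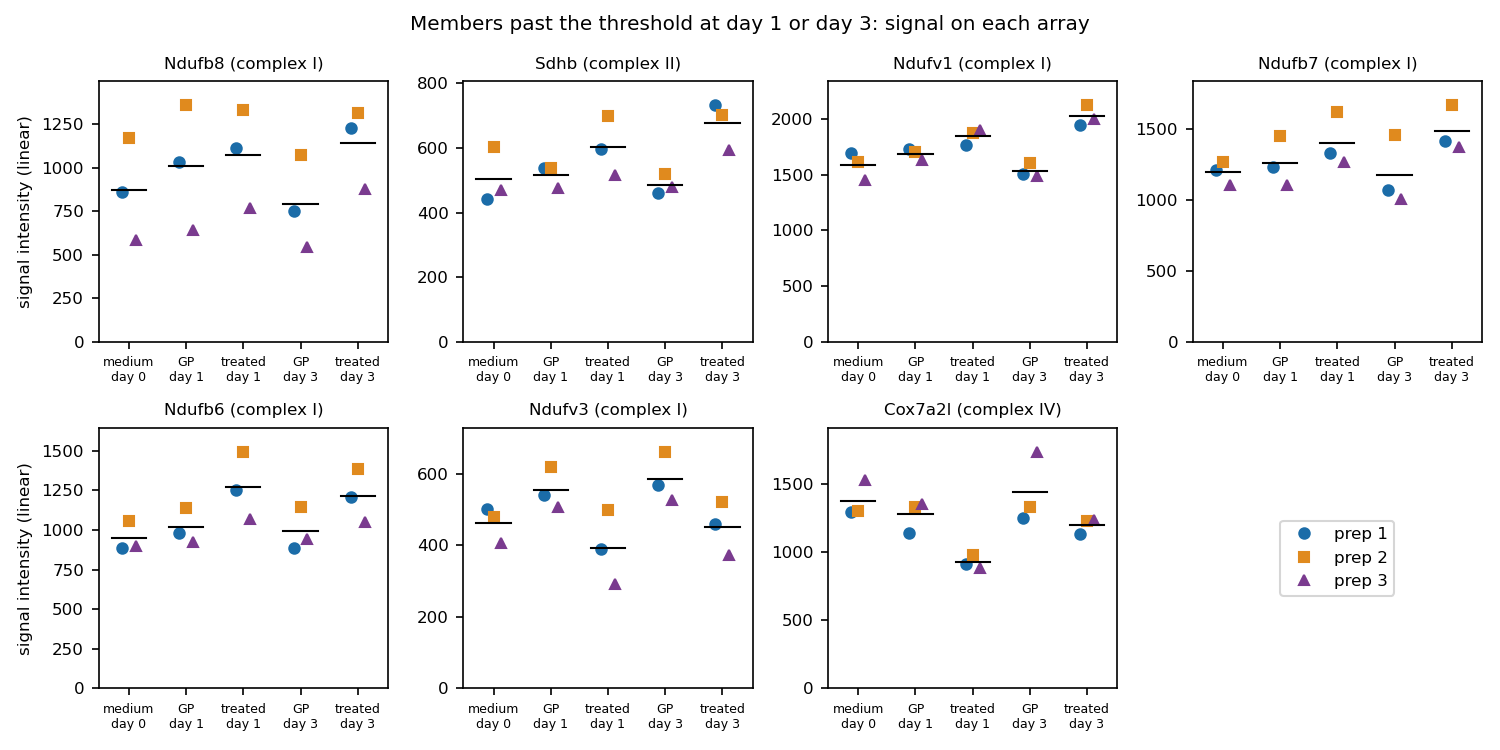
Signal intensity (linear axis from 0) of the 7 members past the threshold at day 1 or day 3, on each of the 15 arrays; symbols mark the preps and black lines the mean of each group. Ndufv1 and Sdhb at day 3 and Cox7a2l at day 1 separate without overlap, whereas the groups overlap at day 3 for Ndufb8, Ndufb7 and Ndufb6, which are higher with treatment in each prep.

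The remaining complex IV members covered the isoform pairs that distinguish muscle from other tissues. Cox6a1, the isoform of most tissues, was 1881 to 2766 in GP and 2345 to 2856 in treated cells at day 3 (0.20 ± 0.12, limma adjusted p = 0.335). Cox7a2, the non-muscle partner of Cox7a1, differed by 0.06 ± 0.11 at day 1 and 0.05 ± 0.11 at day 3, and Cox6b1 by 0.15 ± 0.24 and 0.18 ± 0.24. Cox4i1, a regulatory subunit, was 91.4, 132 and 94.8 in GP and 80.9, 79.1 and 55.2 in treated cells at day 1. The groups did not overlap, and the difference of -0.57 ± 0.22 did not pass (limma adjusted p = 0.164). Cox8b, the heart and muscle isoform of subunit 8, ranged from 31.7 to 84.8 over the arrays and differed by 0.02 ± 0.28 and -0.17 ± 0.28. Its other probe set had a mean signal of 10.9, under the filter. The probe sets used for Cox4i1, Cox6a1, Cox6b1 and Cox8b carry a suffix letter from the array's maker. The same holds for 17 tested members in total, and what else such probe sets may detect was not tested.

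Complex V had no member past the threshold on either day, and its 13 members had a median log2 difference of 0.00 at day 1 and 0.06 at day 3. Atp5a1, the alpha subunit of the catalytic head, read 1862, 1939.9 and 1820.3 in GP and 1777, 1983 and 1593 in treated cells at day 1, and 1822, 1784 and 1782 against 1843, 1981 and 1802 at day 3. The groups overlap on both days, and the differences were -0.08 ± 0.08 and 0.06 ± 0.08, with a 95% interval of -0.12 to 0.24 at day 3. Atp5md, a small membrane subunit, differed by 0.00 ± 0.13 and 0.24 ± 0.13. Atp5g1, 1 of the genes for the ring subunit c, differed by 0.05 ± 0.31 and -0.11 ± 0.31.

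The size of change that the arrays could show was small. The median standard error of a difference between groups was 0.12 for the members, against 0.20 for all tested probe sets. The 95% interval of the treated difference lay wholly within 1.5-fold for 48 of 62 members at day 1 and 46 at day 3, and within 2-fold for 59 and 61. The number of arrays limits this precision.

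The effect of treatment was not shown to differ between the days for any member. The difference of the day 3 and day 1 effects had no probe set past the threshold among the 7453 tested (limma), with 650 at an unadjusted p under 0.05, and 3 of those were members: Atp5c1 (0.36 ± 0.13, limma adjusted p = 0.393), Ndufb8 (0.45 ± 0.15, 0.342) and Ndufv1 (0.27 ± 0.12, 0.534). Fits with quantile normalization and with array weights called 1 and 15 probe sets, none of them a member. For Ndufv3 the difference between days was 0.15 ± 0.16 and for Cox7a2l 0.21 ± 0.15.

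Small differences of 1 sign were common between control medium at day 0 and GP at day 1. No member passed the threshold (0.725% of all tested probe sets did, almost all of them higher), and 7 of 62 members were past an unadjusted p of 0.05, all of them higher (7.62% of all tested probe sets were past it in either direction). The median log2 difference of the members was 0.13, against 0.00 over all tested probe sets, and it was 0.12, 0.19 and 0.11 within preps 1, 2 and 3. Of the 62 members, 49 had a difference above 0 (79%, against 50.3% of all tested probe sets). In all 3 preps 27 were higher and 0 were lower, where 17.2% and 16.1% of all tested probe sets were, and 9 were higher and 0 lower without overlap of the groups (5.62% and 3.56%). The shift was not particular to the members. Of the lists described further below, the mitochondrial ribosome had 44 of 59 genes above 0 (median 0.11). Electron carriers and assembly factors had 15 of 21 (0.08), carrier and import genes 14 of 23 (0.03) and cytosolic ribosome genes 13 of 27 (-0.01). These counts are given without a test of any set.

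The medians by complex in that comparison were 0.11 for I, 0.00 for II, 0.13 for III, 0.22 for IV and 0.14 for V. Ndufaf4 went from 25.1, 29.6 and 20.2 in control medium to 43.8, 38.0 and 35.3 in GP at day 1, without overlap (0.66 ± 0.25, limma adjusted p = 0.534). Cox7a2 went from 749, 944 and 879 to 947, 1169.6 and 1129 (0.34 ± 0.11, 0.382), and Cox5b, a peripheral subunit of complex IV, from 719, 1026 and 883 to 1016, 1229 and 987 (0.31 ± 0.11, 0.413). Cox7a2 did not overlap, by the narrow margin of 944 against 947, and Cox5b did. These 3 were named after their values were seen. On the medium arrays the median deviation of the members from their own mean was -0.07, 0.00 and -0.23, and on the GP day 1 arrays 0.03, 0.20 and -0.09. As group means these were -0.10 ± 0.12 (SD, n = 3) in control medium and 0.05 ± 0.14 in GP at day 1, and 0.04 ± 0.17, 0.02 ± 0.08 and 0.04 ± 0.05 in treated day 1, GP day 3 and treated day 3.

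From day 1 to day 3 the members changed little in either arm. No member passed in GP cells (1.85% of all tested probe sets did) or in treated cells (3.84%), and the medians were -0.02 and 0.05. Among the tested members Atp5md had the largest difference in treated cells, from 2327, 3571 and 2998 to 4248, 4414 and 3545 (0.47 ± 0.13, limma adjusted p = 0.0597), and Cox7a2l was next (0.37 ± 0.11, 0.0743). In GP cells Ndufb8 differed by -0.34 ± 0.10 (0.145).

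**Figure D3:**
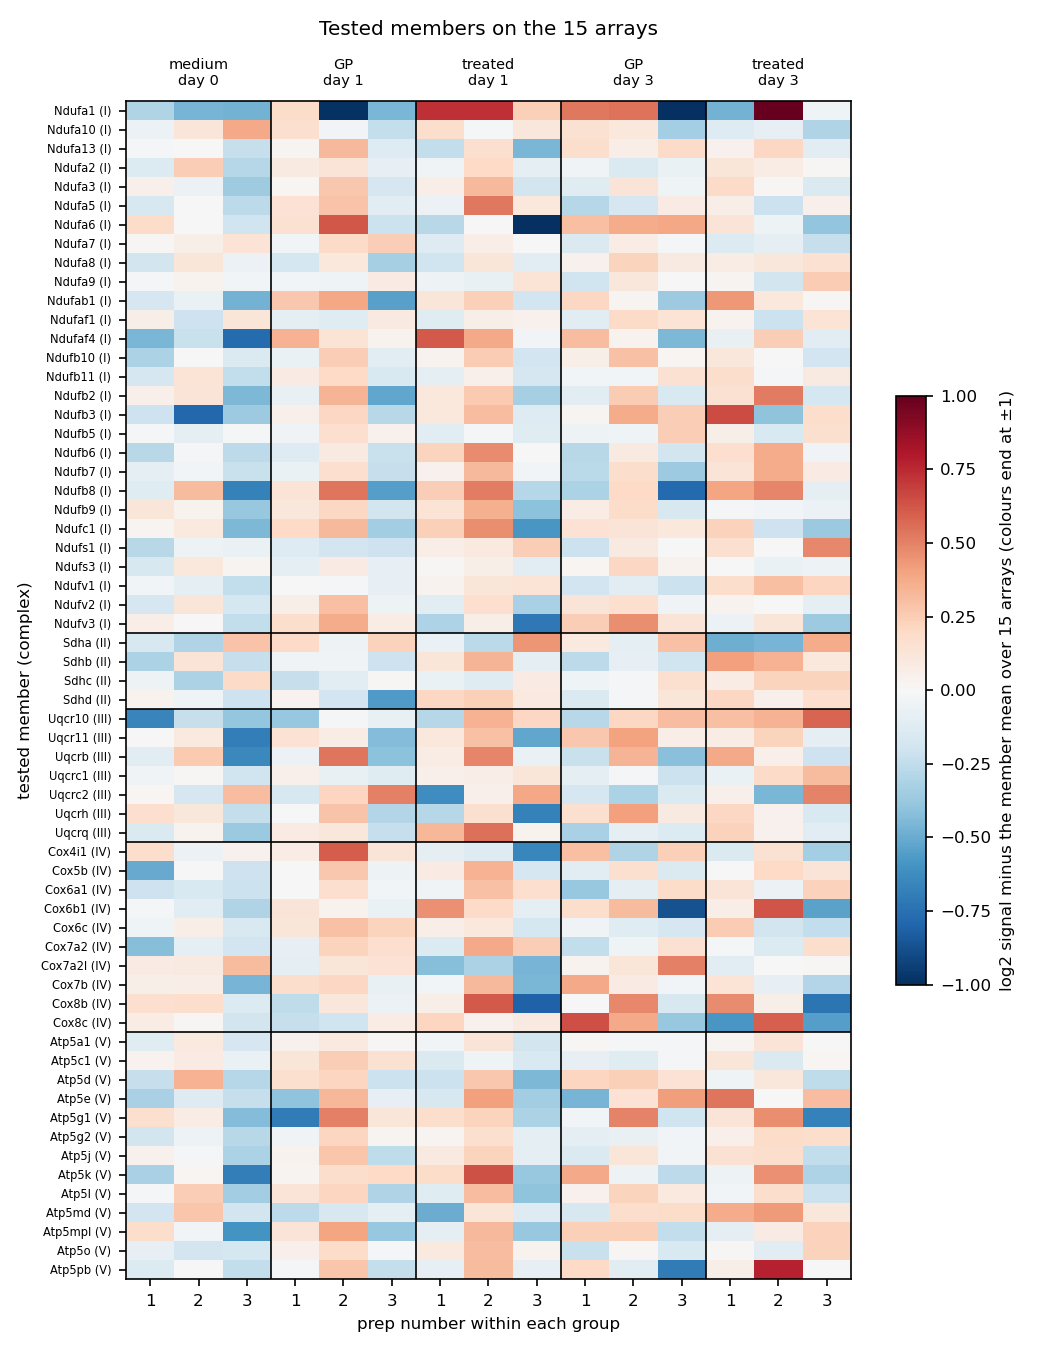
Log2 signal of each tested member minus its mean over the 15 arrays, with members in rows by complex and arrays in columns by group and prep; colours end at 1 and -1 on the log2 scale. Columns of prep 2 are mostly red and columns of prep 3 mostly blue, and blocks that follow treatment are few.

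Across the set, the members varied between preps as well as between groups. The mean log2 signal of a member ranged over 1.25-fold between its highest and lowest group (median of 62, from 1.04 to 1.98), and over 1.24-fold between its highest and lowest prep. For 27 of 62 the range over preps was the larger. The group range spans 5 means of 3 arrays and the prep range 3 means of 5 arrays. The sizes of these ranges are therefore not like measures. The members' median deviation was -0.07 to 0.07 on the arrays of prep 1, 0.00 to 0.23 in prep 2 and -0.23 to -0.02 in prep 3. Prep 3 was the lowest of the 3 preps in all 5 groups for 16 members (25.8%, against 12.2% of all tested probe sets), among them Ndufb8, Ndufb7 and Ndufv3. It was the highest in all 5 for 2 members, Sdha and Uqcrc2 (3.23%, against 11.2%). The values at the floor given above move with prep 3, whereas the actin ratio of 2.11 belongs to a single array of it, GP at day 3. The other arrays of prep 3 had ratios of 1.21 to 1.34, and those of preps 1 and 2 had 1.00 to 1.21. The part of the floor values and of the actin ratio in these differences was not tested.

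Cox6a2, the heart and skeletal muscle isoform of subunit 6a, was not tested because its mean signal (19.3) was under the filter, but it differed widely between arrays. In prep 3 it was 156.3 in control medium, 154.1 in GP at day 1 and 202.2 in GP at day 3, and 9.4 and 5.8 in treated cells at days 1 and 3. In prep 2 it was 27.3 in control medium and 26.2 in GP at day 1, and 8.9 to 10.6 in the other 3 groups. In prep 1 it stayed at 8.9 to 11.3 in all 5 groups. The treated arrays were thus at 5.8 to 11.3 in each prep, and the arrays above the filter were 5 untreated ones of preps 2 and 3.

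**Figure D4:**
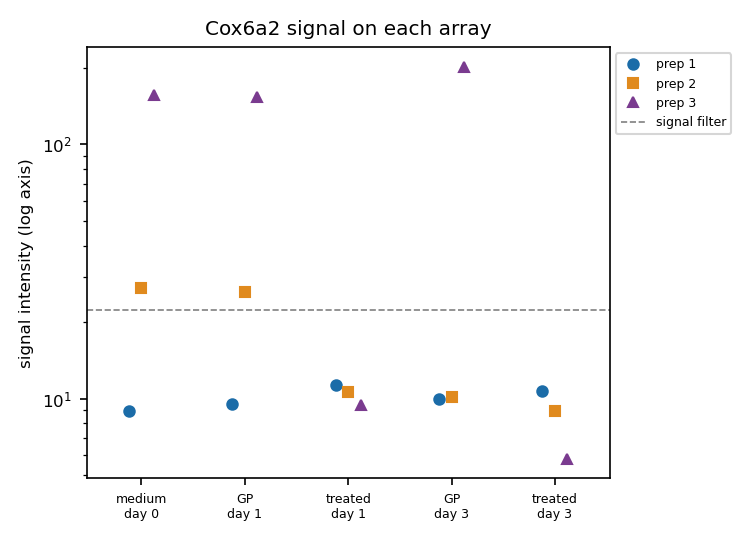
Cox6a2 signal intensity (log axis) on each of the 15 arrays by group, with symbols for the preps and a dashed line at the signal filter of 22.3. Values over 100 appear only on the 3 untreated arrays of prep 3, and all 6 treated arrays lie under the filter.

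In a fit with no signal filter, Cox6a2 differed by -1.70 ± 1.04 at day 1 and -1.74 ± 1.04 at day 3 (limma adjusted p = 0.559 and 0.416), with prep 3 carrying most of the difference. Of 9 skeletal muscle markers 4 passed the filter, and the summed signal of the list was 168.5 to 233 on the arrays of prep 3 and 153.4 to 254 over all arrays. Of single markers, Ckm, the muscle creatine kinase, was 26.4 to 69.6 in prep 3 and 6.6 to 40.2 in preps 1 and 2, and it was 51.5 and 54.1 on the treated arrays of prep 3, where Cox6a2 was low. The other skeletal markers past the filter were not higher as a range in prep 3. Myod1 was 36.9 to 53 there and 40.4 to 76.2 in preps 1 and 2. Myog was 24.9 to 43.9 against 23.4 to 90, and Myh4 23.3 to 41.2 against 14.5 to 53.5. Myf5, Mb and Acta1 had mean signals of 3.2, 5.2 and 7.8, near the floor. Of 4 cardiac markers 2 passed, with sums of 501.3 to 869.1 in prep 3 and 639.5 to 974.6 in preps 1 and 2. Actc1, the cardiac actin, was 777 in control medium, 807 in GP at day 1 and 428 in GP at day 3 in prep 3. On the treated arrays of prep 3 it was 513 at day 1 and 468 at day 3, and it was 544 to 815 in preps 1 and 2. Nppa, the other cardiac marker past the filter, was 34.1 to 71.5 in prep 3 and 76 to 141.7 in preps 1 and 2. The part of muscle markers in the Cox6a2 values was not tested.

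The other 8 members under the filter were near background. Cox7a1, the muscle partner of Cox7a2, ranged from 0.8 to 17.1 with 6 values at or under the floor, and Cox8a from 2.0 to 16.5 with 3. Cox5a, a nuclear-encoded subunit of complex IV, ranged from 5.0 to 24.1, and the testis isoform Cox6b2 from 5.7 to 38.9. Atp5j2, Ndufa12, Ndufc2 and Ndufs4 ranged from 2.5 to 31.8 together. None of these 8 passed at either day in a fit with no filter. Signals this low give neither a level of the transcript nor an order of the arrays.

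Genes around the respiratory chain gave a context for these small differences. They were taken from lists chosen with earlier results of these data known, so their directions are no independent evidence, and counts are read against 4.99% of all tested probe sets at day 1 and 13.8% at day 3. Of 59 mitochondrial ribosome genes, which make the subunits encoded in mitochondrial DNA, 3 rose at day 1 and 6 at day 3 (10.2%) and none fell, with a median of 0.16 at day 3. Mrps28 (0.99 ± 0.16, limma adjusted p = 0.00134) and Mrpl12 (0.92 ± 0.16, 0.00217) rose most at day 3, and only these 2 passed without the block. Of 21 electron carriers and assembly factors outside the members, Cox18, which inserts a core subunit of complex IV, rose at day 1 (0.56 ± 0.11, 0.0108), and Aifm1 and Phb2 rose at day 3 (0.41 ± 0.11 and 0.36 ± 0.10). Without the block none of the 21 passed.

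Import and regulatory genes had calls with the block only. Of 23 carrier and import genes, Timm17a and Timm23, parts of the inner membrane translocase, rose at day 1 (0.51 ± 0.12 and 0.45 ± 0.12), and the chaperonin Hspd1 fell (-0.38 ± 0.10). At day 3 Timm8a1, Tomm40 and the ADP/ATP carrier Slc25a5 rose (1.20 ± 0.23, 0.79 ± 0.21 and 0.65 ± 0.19). Of 13 regulators of mitochondrial biogenesis, the protease Lonp1 fell at day 1 (-0.70 ± 0.16), and Myc and Pprc1, a coactivator of the PGC-1 family, rose at day 3 (0.94 ± 0.15 and 0.66 ± 0.20).

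Enzymes upstream of the chain had calls in both directions. Of 19 TCA cycle and pyruvate dehydrogenase genes, 2 rose and 1 fell at day 1 and 3 rose and 2 fell at day 3 (26.3%), with medians of 0.09 and 0.10. Dlst and Ogdh, parts of the 2-oxoglutarate dehydrogenase complex, rose on both days (0.58 ± 0.12 and 0.60 ± 0.12 at day 3), and Pdk1, the kinase that inhibits pyruvate dehydrogenase, fell by 1.72 at day 1 and by 1.67 at day 3 on the log2 scale (limma adjusted p = 0.000597 and 0.000283). Of 15 glycolysis genes, 4 fell at day 1 (26.7%) and 6 at day 3 (40%), none rose, and the medians were -0.58 and -0.37. Aldoa fell by 1.29 and 0.97 on the 2 days (limma adjusted p = 1.44e-05 and 4.17e-05). Without the block 2 glycolysis genes passed on each day, as did 2 of the TCA cycle list at day 1 and 3 at day 3. None of 27 tested cytosolic ribosome genes passed the threshold on either day, with medians of -0.12 and 0.04.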

How the data were processed

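The deposited table holds linear signal intensities for 12488 probe sets on 15 arrays; the authors' software is not given in the sources used here. Array medians were 38.4 to 50.6 and the trimmed mean was near 150 on every array, so the values arrived scaled; how they were scaled or centred is not given in the sources used here. Values under 2.8 (the 10th percentile) were raised to it, log2 was taken, and the 7453 non-control probe sets with a mean above the 40th percentile (22.3) were tested. Genes were named from the platform annotation (10833 probe sets with 1 symbol, 396 with several, 1193 with none) and all 71 members matched RefSeq. R 4.3.3 and limma 3.58.1 fitted 1 coefficient per group and the prep number as a block (8 residual degrees of freedom), with a mean-variance trend and Benjamini-Hochberg adjustment at 0.05. The prep numbers come from the labels. Samples of a prep deviated together (r = 0.19 to 0.70, above 0.1 in 30 of 30 pairs), so they were taken as paired. No 2 arrays held the same values (r at most 0.967). The scripts were tested on simulated data.

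Text names members past the threshold, core subunits and isoform pairs. By a rule that only selects, it also names the probe set with the highest and lowest signal of each complex. Others, Sdhd, Atp5c1 and Ndufb2 among them, were chosen after their values were seen. The members and lists were chosen with earlier results of these data known. Counts of prep order and of ranges over preps and groups, and the shortened motif letters, were chosen after seeing the data. Alternatives changed the block, floor, filter, scaling, variance model, samples, probe set and replicates.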

Additional observations from a re-analysis of the deposited data

How the results depend on the processing

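Percentages in brackets here are the share of all tested probe sets called in the same fit. With the prep block left out (no pairing by prep), 0 members passed at day 1 (0.926%) and 1 at day 3 (4.11%). With it these were 2 (4.99%) and 6 (13.8%), and the block changed no call in the other comparisons. The day 1 count was 4 under quantile normalization (5.06%), 0 under median scaling (3.21%) and 1 without the mean trend (2.98%). It was 6 with array weights (10.5%) and 0 when only the groups compared were fitted (4.52%). The day 3 count was 3 without the mean trend (11.7%) and 1 with only the groups compared (9.81%). A filter at the 60th percentile (6.02%) and quantile normalization (3.7%) each called 1 member between treated day 3 and treated day 1. Array weights called 2 between GP day 3 and GP day 1 (6.1%). Median scaling moved the members' median at day 1 to 0.0600, and the median of all tested probe sets from -0.00398 to 0.0361. Leaving out 1 array gave 0 to 1 calls at day 1 (1.41 to 3.26%) and 3 to 5 at day 3 (8.18 to 12.7%). Between the treated days it gave 0 to 1 (1.34 to 3.53%). Leaving out a prep gave 0 at day 1 (0.483 to 3.53%) and 0 to 3 at day 3 (3.45 to 10.6%). Without 1 array the day 1 median ranged from -0.0416 to 0.0712, and the day 3 median from -0.00872 to 0.0977 (-0.0236 without prep 1), so neither sign is fixed. The 8 single-gene differences kept their direction under every alternative that gave a value: 81 kept their side of the threshold and 69 did not. The 81 include the setting with a second probe set, where the genes concerned kept their only probe set and could not change. Fewer arrays leave fewer degrees of freedom; for the other settings the cause was not tested. Signals near the floor limit what can be said of the 9 untested members.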

Other observations

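Several members had a further probe set past the filter, and some of these read differently. For Cox4i1 the probe set used differed by -0.19 between treated and GP cells at day 3 and the other by 0.45 (limma adjusted p = 0.643 and 0.541). For Atp5c1, the gamma subunit of complex V, the values at day 1 were -0.29 and -0.17 (0.0937 and 0.379), and at day 3 they were 0.08 and -0.07 (0.655 and 0.715). The 2 probe sets of Ndufb2 past the filter were close, at 0.17 and 0.18 at day 3. The further probe sets of Ndufb6 and Ndufb7 were under the filter, so those rises rest on 1 probe set each. With the second probe set in place of the first where a gene had one, 52 genes were tested. Of these, 2 passed at day 1 and 4 at day 3 (4.99% and 13.8% of all tested probe sets). The genes that passed, Cox7a2l, Ndufv3, Ndufb8, Ndufv1 and Sdhb, each have only 1 probe set and kept it. This setting could therefore not change their calls.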
